A study of Mus musculus with 20 samples.

Results

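The Reg (regenerating islet-derived) family was followed through bulk RNAseq of mouse pancreatic islets. The members were 7 genes taken by name, *Reg1*, *Reg2*, *Reg3a*, *Reg3b*, *Reg3d*, *Reg3g* and *Reg4*, and all 7 were among the 28632 genes of the count table. The islets came from C57BL/6N mice of 12 weeks of age in 4 groups. There were 6 control (Ctrl), 4 β-Mfn1KO, 5 β-Mfn2KO and 5 β-Mfn1/2DKO libraries, from both sexes. *Mfn1* and *Mfn2* encode the mitofusins, the GTPases that join mitochondrial outer membranes. The knockouts carried floxed *Mfn1*, floxed *Mfn2* or both, with *Ins1*-Cre, which recombines in β-cells, so that the other cells of the islet kept both genes. The study's controls pooled littermates that had only *Ins1*-Cre or only floxed alleles, whereas the sample labels call them wild type. Islets were released from the pancreas with collagenase, purified on a density gradient, picked by hand and kept in culture before RNA was taken. The gradient and the picking remove acinar tissue, within which islets sit.

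Reg proteins are small secreted C-type lectin-like proteins. Acinar cells of the exocrine pancreas are their main pancreatic source, and the family was named for its appearance in regenerating islets. Reg3 proteins are known as acute-phase products of the injured pancreas and as antibacterial lectins of the gut, induced through gp130 and IL-22 receptors and STAT3. The question here was how the 7 genes moved across the genotypes, and how closely they moved with digestive enzymes such as *Cpa1*, which encodes the acinar enzyme carboxypeptidase A1. In bulk RNA, more acinar cells in a preparation and more transcript per acinar cell cannot be told apart.

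Of the 7 genes, 6 form a cluster. On GRCm38, *Reg3b* (ENSMUSG00000071356), *Reg3d* (ENSMUSG00000068341), *Reg3a* (ENSMUSG00000079516), *Reg2* (ENSMUSG00000023140), *Reg1* (ENSMUSG00000059654) and *Reg3g* (ENSMUSG00000030017) lie in this order on chromosome 6 between 78370657 and 78468872. This interval of 98.2 kb holds no other annotated gene. *Reg3d* and *Reg3g* are on the minus strand and the other 4 on the plus strand. *Reg4* (ENSMUSG00000027876) is on chromosome 3. Of the 75-base words in the members' transcripts, only those of *Reg2* were also found in transcripts of other genes, at 40 of 874 words, and no member shared a word with another member.

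The upstream sequences are shown for *Reg1*, *Reg2*, *Reg3a* and *Reg3b*, the 4 members with a count in every library, since these genes moved together and their ratios to the acinar enzymes are compared further on. Each is the 250 bases before the RefSeq start on GRCm38.p6, plus strand, at chr6:78425733-78425982, chr6:78404905-78405154, chr6:78380459-78380708 and chr6:78370635-78370884. Capitals mark matches on either strand to CACCTG, the E-box bound by PTF1 among other factors, to TTTCCC, part of the PTF1 site of acinar genes, and to TTCNNNGAA, the STAT site.
Reg1: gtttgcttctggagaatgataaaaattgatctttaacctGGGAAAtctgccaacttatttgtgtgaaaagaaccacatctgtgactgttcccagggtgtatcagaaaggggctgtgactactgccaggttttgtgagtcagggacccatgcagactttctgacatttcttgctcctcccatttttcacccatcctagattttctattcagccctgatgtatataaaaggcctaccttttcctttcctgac
Reg2: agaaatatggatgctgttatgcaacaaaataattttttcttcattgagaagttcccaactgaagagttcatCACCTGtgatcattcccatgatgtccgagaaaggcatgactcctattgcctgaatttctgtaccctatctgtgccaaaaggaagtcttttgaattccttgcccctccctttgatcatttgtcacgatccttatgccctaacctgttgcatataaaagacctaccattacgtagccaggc
Reg3a: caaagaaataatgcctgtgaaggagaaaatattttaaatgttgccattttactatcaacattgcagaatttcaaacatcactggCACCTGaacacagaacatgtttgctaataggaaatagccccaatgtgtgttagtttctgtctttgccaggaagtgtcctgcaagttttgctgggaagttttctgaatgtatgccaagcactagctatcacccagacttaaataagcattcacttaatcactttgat
Reg3b: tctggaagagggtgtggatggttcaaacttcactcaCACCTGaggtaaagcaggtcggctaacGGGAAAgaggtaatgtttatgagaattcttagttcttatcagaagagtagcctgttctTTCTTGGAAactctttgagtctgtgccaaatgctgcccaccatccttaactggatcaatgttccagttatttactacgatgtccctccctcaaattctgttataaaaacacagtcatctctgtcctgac

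Over all 7 members, CACCTG was found upstream of 5, against 17.2% of 32851 mouse promoters of the same length. TTTCCC was found in 4 of 7, against 21.9% of promoters. TTCNNNGAA was found in 2 of 7, *Reg3b* and *Reg3d*, against 7.02%, and its match in *Reg3d* overlapped a TTTCCC match. TGATGNAA, the site of the stress factor ATF4, was found in none of the 7 windows and in 3.45% of promoters. TATAAA, a core promoter element added after the sequences were seen, was found in 4 members, *Reg1*, *Reg2*, *Reg3b* and *Reg3g*, and in 12.4% of promoters. These matches are letters in a window and were not tested for binding.

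Library totals ran from 12400687 to 20329064 counts in Ctrl, 15745680 to 16685381 in β-Mfn1KO, 15110046 to 59533407 in β-Mfn2KO and 65533388 to 122947313 in β-Mfn1/2DKO, so that depth and the double knockout cannot be told apart. The targeted genes followed the labels. In CPM, which scales a gene's counts to the TMM-adjusted total of its library, *Mfn1* ran from 36.6 to 43.6 in Ctrl, from 15.0 to 18.6 in β-Mfn1KO and from 16.6 to 25.6 in β-Mfn1/2DKO, where replicates 4 (20.7) and 5 were highest. *Mfn2* ran from 74.6 to 106 CPM in Ctrl, from 35.6 to 40.8 in β-Mfn2KO and from 48.8 to 51.5 in β-Mfn1/2DKO. Transcripts of 7 islet peptide genes, *Ins1*, *Ins2* and *Gcg* among them, summed to 186200 to 252100 CPM in Ctrl and 186700 to 235400 CPM in β-Mfn1KO. They summed to 169800 to 222000 CPM in β-Mfn2KO and to 111700 to 130000 CPM in β-Mfn1/2DKO, whose libraries lay below all the others. Transcripts of 30 acinar enzymes took 0.0458% to 0.299% of the counts in Ctrl, 0.016% to 0.101% in β-Mfn1KO and 0.0802% to 1.14% in β-Mfn2KO, with replicate 4 highest. In β-Mfn1/2DKO they took 0.077%, 0.129%, 0.079%, 2.96% and 7.57% in replicates 1 to 5. Replicates 4 and 5 of β-Mfn1/2DKO and replicate 4 of β-Mfn2KO thus stood apart from the other 17 libraries. These 3 libraries came from male mice, as did β-Mfn1/2DKO 3. They were also deep, with at least 55962873 counts each. The libraries β-Mfn2KO 5 and β-Mfn1/2DKO 1 to 3 were deep as well, and their enzyme share was at most 0.129%. The counts and members' values that compare β-Mfn1/2DKO with Ctrl are therefore also given without β-Mfn1/2DKO 4 and 5.

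Among the members, levels per kilobase of transcript differed over a wide range. In Ctrl, *Reg1* averaged 19.5 CPM per kb and *Reg2* 17.1 CPM per kb. *Reg3b* averaged 5.96, *Reg3a* 1.98, *Reg3d* 0.508, *Reg3g* 0.484 and *Reg4* 0.0359 CPM per kb. *Cpa1* averaged 26.3 CPM per kb in the same libraries. Per kb, *Reg1* exceeded *Reg2* in 16 of 20 libraries, *Reg2* exceeded *Reg3b* in 20 of 20 and *Reg3b* exceeded *Reg3a* in 20 of 20. *Reg3d* exceeded *Reg3g* in 13 of 20 libraries, and the Ctrl ranges of these 2 genes overlapped, as did those of *Reg1* and *Reg2*. The Reg3 genes together made up 5.64% to 28.6% of the Reg counts of a library, with Ctrl 4 and Ctrl 2 (21.4%) highest and β-Mfn1/2DKO 5 lowest.

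**Figure D1:**
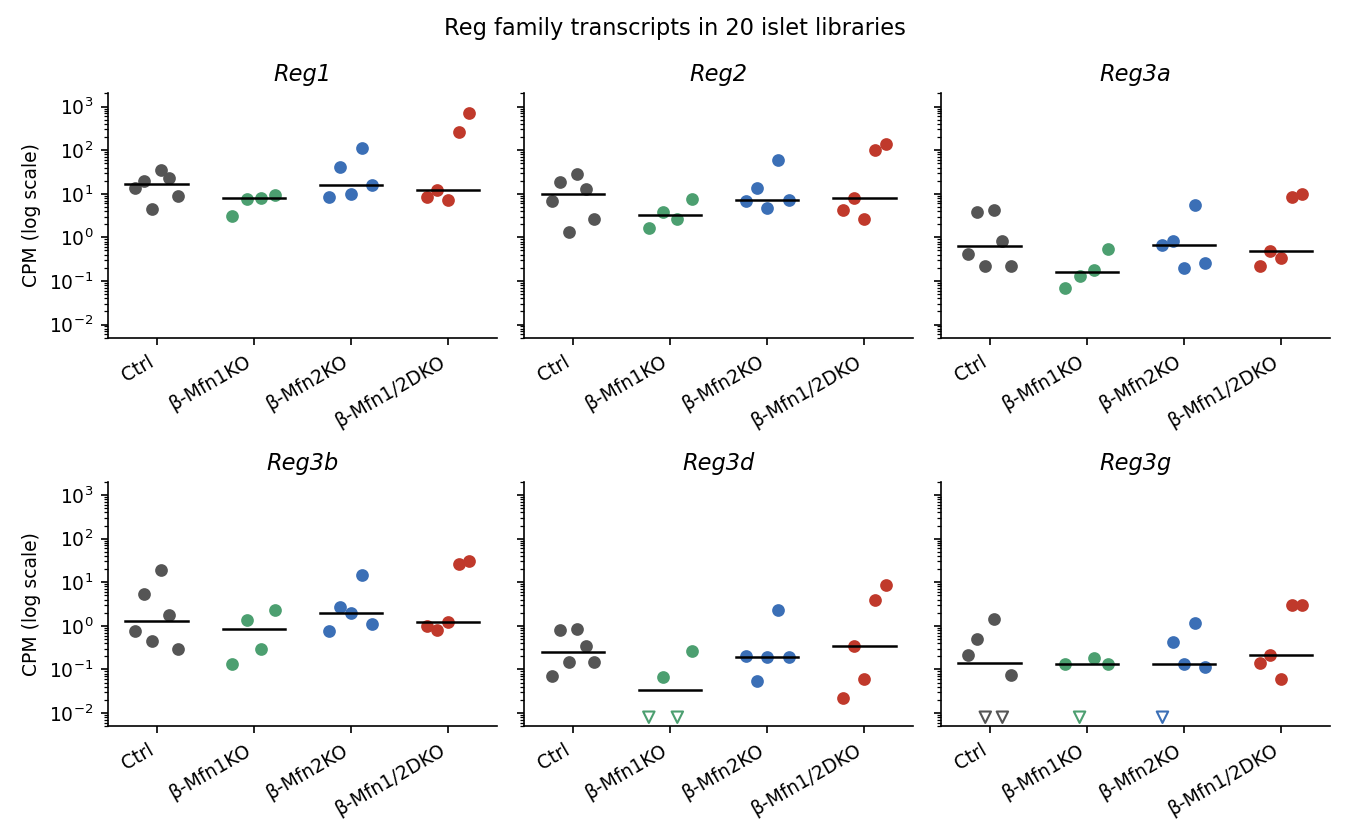
Level in CPM (log scale) of the 6 clustered Reg genes in each of 20 libraries by genotype. Filled points are libraries, bars are group medians and open triangles at the bottom are libraries with 0 counts. The highest 2 points of β-Mfn1/2DKO are replicates 4 and 5 in every panel, and the medians of the 4 groups run from 7.84 to 16.7 CPM for *Reg1*.

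*Reg1* encodes lithostathine, one of the most abundant secreted proteins of acinar juice. In Ctrl it ranged from 4.40 to 36.0 CPM with a median of 16.7. In β-Mfn1KO it stood at 3.03, 7.64, 8.04 and 9.57 CPM, and in β-Mfn2KO at 8.24, 40.5, 9.69, 112 and 15.6 CPM. In β-Mfn1/2DKO it stood at 8.34, 12.4, 7.04, 256 and 729 CPM. Replicates 1 to 3 of β-Mfn1/2DKO lay inside the Ctrl range, whereas replicates 4 and 5 lay above every other library. Replicates 2 and 4 of β-Mfn2KO also exceeded the highest control. The fitted difference of β-Mfn1/2DKO from Ctrl was 3.53 ± 0.97 on the log2 scale (adjusted p = 0.0136, edgeR quasi-likelihood test with Benjamini-Hochberg adjustment). Without replicates 4 and 5 it was -0.90 ± 0.63 (adjusted p = 0.451, same test).

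*Reg2*, a mouse paralogue of *Reg1* also made in the exocrine pancreas, ranged from 1.32 to 28.7 CPM in Ctrl with a median of 10.02. It stood at 1.62, 3.92, 2.70 and 7.43 CPM in β-Mfn1KO and at 6.95, 13.7, 4.81, 60.2 and 7.11 CPM in β-Mfn2KO. In β-Mfn1/2DKO its levels were 4.2, 8.15, 2.69, 102 and 140.03 CPM. The groups overlapped, and 3 libraries exceeded the highest control, β-Mfn1/2DKO 4 and 5 and β-Mfn2KO 4. The difference of β-Mfn1/2DKO from Ctrl was 2.10 ± 0.88 (adjusted p = 0.117, edgeR), and -1.24 ± 0.75 without replicates 4 and 5 (adjusted p = 0.359, edgeR).

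*Reg3a*, which encodes a secreted lectin first described as a pancreatitis-associated protein, was found at low levels. Its Ctrl libraries ranged from 0.220 to 4.24 CPM with a median of 0.633. β-Mfn1KO libraries held 0.0674, 0.133, 0.180 and 0.536 CPM, β-Mfn2KO libraries 0.681, 0.809, 0.195, 5.42 and 0.255 CPM, and β-Mfn1/2DKO libraries 0.215, 0.490, 0.332, 8.23 and 9.79 CPM. Ctrl 2 and Ctrl 4 were the high controls and lay above replicates 1 to 3 of β-Mfn1/2DKO, of which replicate 1 was just below the lowest control. The difference of β-Mfn1/2DKO from Ctrl was 1.2 ± 0.95 (adjusted p = 0.473, edgeR), and -2.23 ± 0.94 without replicates 4 and 5 (adjusted p = 0.146, edgeR).

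*Reg3b*, the lectin most closely tied to pancreatic injury in mice, ranged from 0.301 to 19.4 CPM in Ctrl with a median of 1.27. It stood at 0.135, 1.39, 0.300 and 2.28 CPM in β-Mfn1KO, at 0.749, 2.64, 1.95, 15.0 and 1.10 CPM in β-Mfn2KO, and at 1.02, 0.790, 1.24, 26.1 and 30.5 CPM in β-Mfn1/2DKO. Ctrl 4 was the one control above the highest β-Mfn2KO library, and replicates 1 to 3 of β-Mfn1/2DKO were again inside the Ctrl range. The difference of β-Mfn1/2DKO from Ctrl was 1.38 ± 1.01 (adjusted p = 0.426, edgeR), and -2.14 ± 1.02 without replicates 4 and 5 (adjusted p = 0.213, edgeR).

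*Reg3d*, related to the islet neogenesis-associated protein of hamsters, and *Reg3g*, an antibacterial lectin, were close to the limit of detection. *Reg3d* ranged from 0.0702 to 0.847 CPM in Ctrl (median 0.251) and stood at 0, 0.0664, 0 and 0.268 CPM in β-Mfn1KO, at 0.204, 0.0539, 0.195, 2.27 and 0.191 CPM in β-Mfn2KO, and at 0.0223, 0.345, 0.0596, 3.93 and 8.73 CPM in β-Mfn1/2DKO. *Reg3g* ranged from 0 to 1.44 CPM in Ctrl (median 0.143) and stood at 0.135, 0, 0.180 and 0.134 CPM in β-Mfn1KO, at 0, 0.432, 0.130, 1.19 and 0.112 CPM in β-Mfn2KO, and at 0.141, 0.211, 0.0596, 2.93 and 2.96 CPM in β-Mfn1/2DKO. Both were highest in the same 2 libraries, β-Mfn1/2DKO 4 and 5. A count of 0 allows up to 0.18 to 0.191 CPM for *Reg3d* and 0.189 to 0.224 CPM for *Reg3g*, taking 3 counts over the unadjusted total of each library as the limit. In β-Mfn1/2DKO against Ctrl, *Reg3d* differed by 2.67 ± 1.11 (adjusted p = 0.113, edgeR) and *Reg3g* by 1.78 ± 1.0 (adjusted p = 0.268, edgeR). Without replicates 4 and 5 these differences were -1.53 ± 0.99 and -1.37 ± 0.96.

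*Reg4*, a gut member of the family, had 13 counts in all, with 3 in Ctrl 3, 1 in β-Mfn2KO 4, and 2, 1 and 6 in β-Mfn1/2DKO 2, 3 and 5. The other 15 libraries had 0 counts, which allows up to 0.0244 to 0.242 CPM depending on the library. It was the member that failed the filter on low counts, and the other 6 passed it.

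In β-Mfn1/2DKO against Ctrl, the test thus called 1 of 7 members, *Reg1*, under the call rule (fold change above 1.5, with the adjusted p below 0.05), where 5.21% of all 28632 genes were called. The median log2 fold change of the 7 members was 1.78, beside 0.06 over all genes. For the acinar enzymes 28 of 30 were called higher, with a median of 3.71. *Cpa1* differed by 4.04 ± 1.09 (adjusted p = 0.0117, edgeR), the elastase gene *Cela2a* by 3.76 ± 1.08, the lipase gene *Pnlip* by 3.95 ± 1.11, *Cpb1*, for carboxypeptidase B, by 3.78 ± 1.04 and *Prss2*, for trypsinogen, by 3.42 ± 0.97. Leaving out β-Mfn1/2DKO 4 and 5, no Reg member was called, beside 3.34% of all genes in that fit. No acinar enzyme was then called higher, 1 enzyme (*Prss1*) was called lower, and the median was -1.53 for the Reg genes and -0.86 for the enzymes. The call of *Reg1* was also absent without β-Mfn1/2DKO 5 alone (2.02 on the log2 scale, adjusted p = 0.125, edgeR) and with sex as a covariate (2.76, adjusted p = 0.0515, edgeR).

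Neither single knockout moved the family past the threshold. β-Mfn1KO against Ctrl called 0 of 7 members, where 0.0244% of all genes were called, and the fitted log2 fold changes ran from -1.31 for *Reg1* to -2.83 for *Reg3a* among the 6 clustered genes. The 30 acinar enzymes had a median of -1.62 in the same comparison, with none called. β-Mfn2KO against Ctrl called 0 of 7 members beside 0.0524% of all genes, with values between -0.05 for *Reg3a* and 1.12 for *Reg1* among the 6 clustered genes, -2.12 for *Reg4* with its 13 counts, and an enzyme median of 1.18. DESeq2 also called 0 members in both comparisons. At an unadjusted p under 0.05 edgeR found 0 members in either, beside 2130 of 28632 genes in β-Mfn1KO and 1208 in β-Mfn2KO. Without β-Mfn1/2DKO 4 and 5, *Reg2*, *Reg3a* and *Reg3b* passed this level in β-Mfn1KO (unadjusted p = 0.0477, 0.0151 and 0.0491, edgeR). *Reg1* did so in β-Mfn2KO (unadjusted p = 0.0453, edgeR). None was called, and 2245 and 1281 genes then passed this level in the β-Mfn1KO and β-Mfn2KO comparisons. These comparisons share their Ctrl libraries.

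Against β-Mfn2KO, β-Mfn1/2DKO had 0 of 7 members called beside 3.84% of all genes, and *Reg1* differed by 2.41 ± 0.97 (adjusted p = 0.111, edgeR). DESeq2 called 0 there too, and 1 member had an unadjusted p under 0.05 by edgeR, beside 7387 of all 28632 genes. Without β-Mfn2KO 4 the test called 2 members. Against β-Mfn1KO, the group with the least acinar RNA, 3 of 7 members were called higher beside 6.71% of all genes. These were *Reg1* at 4.84 ± 1.25, *Reg2* at 3.71 ± 1.16 and *Reg3d* at 4.94 ± 1.66 on the log2 scale (adjusted p = 0.00827, 0.0276 and 0.0427, edgeR). None of the 3 was called without β-Mfn1/2DKO 4 and 5, beside 4.46% of all genes, and *Reg1* then differed by 0.41. The count was 1 without β-Mfn1KO 1, 2 or 3 or without β-Mfn1/2DKO 4 or 5 alone, and 5 without β-Mfn1/2DKO 2 or 3 or with DESeq2. The interaction, which asks whether losing *Mfn1* acts differently with and without *Mfn2*, called 0 of 7 members beside 2.74% of all genes. DESeq2 also called 0. By edgeR 4 members had an unadjusted p under 0.05, beside 5286 of all 28632 genes. Without β-Mfn2KO 4 the interaction called 1 member.

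To compare the genes with acinar RNA directly, an acinar score was taken as the mean log2 CPM of the 30 enzymes, none of which is a Reg gene. It ran from 1.77 to 4.45 in Ctrl, from 0.26 to 2.88 in β-Mfn1KO and from 2.44 to 6.18 in β-Mfn2KO. In β-Mfn1/2DKO it was 2.23, 3.14, 2.29, 7.39 and 9.01. In a fit with 1 coefficient per genotype and the score as a covariate, a slope of 1 means that a gene moved in proportion to the enzymes' mean. The slope was 0.97 ± 0.03 for *Reg1*, 0.88 ± 0.05 for *Reg2*, 0.94 ± 0.08 for *Reg3a*, 0.94 ± 0.10 for *Reg3b*, 1.04 ± 0.09 for *Reg3d* and 0.85 ± 0.11 for *Reg3g* (adjusted p between 4.35e-18 and 2.29e-05, edgeR). All 6 passed and *Reg4* did not (0.29 ± 0.20, adjusted p = 0.729, edgeR), where 1.65% of all genes had a positive slope past the threshold. The enzymes with a mean of at least 50 counts had slopes from 0.78 to 1.92. Their median of 1.02 is set near 1 by the score they make up. *Cpa1* itself had a slope of 1.08 ± 0.01. Without β-Mfn1/2DKO 4 and 5, 5 of 7 members passed beside 0.283% of all genes. Their slopes were 0.92 for *Reg1*, 1.07 for *Reg2*, 1.28 for *Reg3a*, 1.29 for *Reg3b* and 1.2 for *Reg3d*. *Reg3g* stood at 1.12 (adjusted p = 0.0513, edgeR). With *Cpa1* as the score, the slopes were 0.90 ± 0.02 for *Reg1*, 0.82 ± 0.05 for *Reg2* and 0.87 ± 0.08 for *Reg3a*. In that fit *Reg3b* stood at 0.87 ± 0.09, *Reg3d* at 0.96 ± 0.08 and *Reg3g* at 0.79 ± 0.10.

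**Figure D2:**
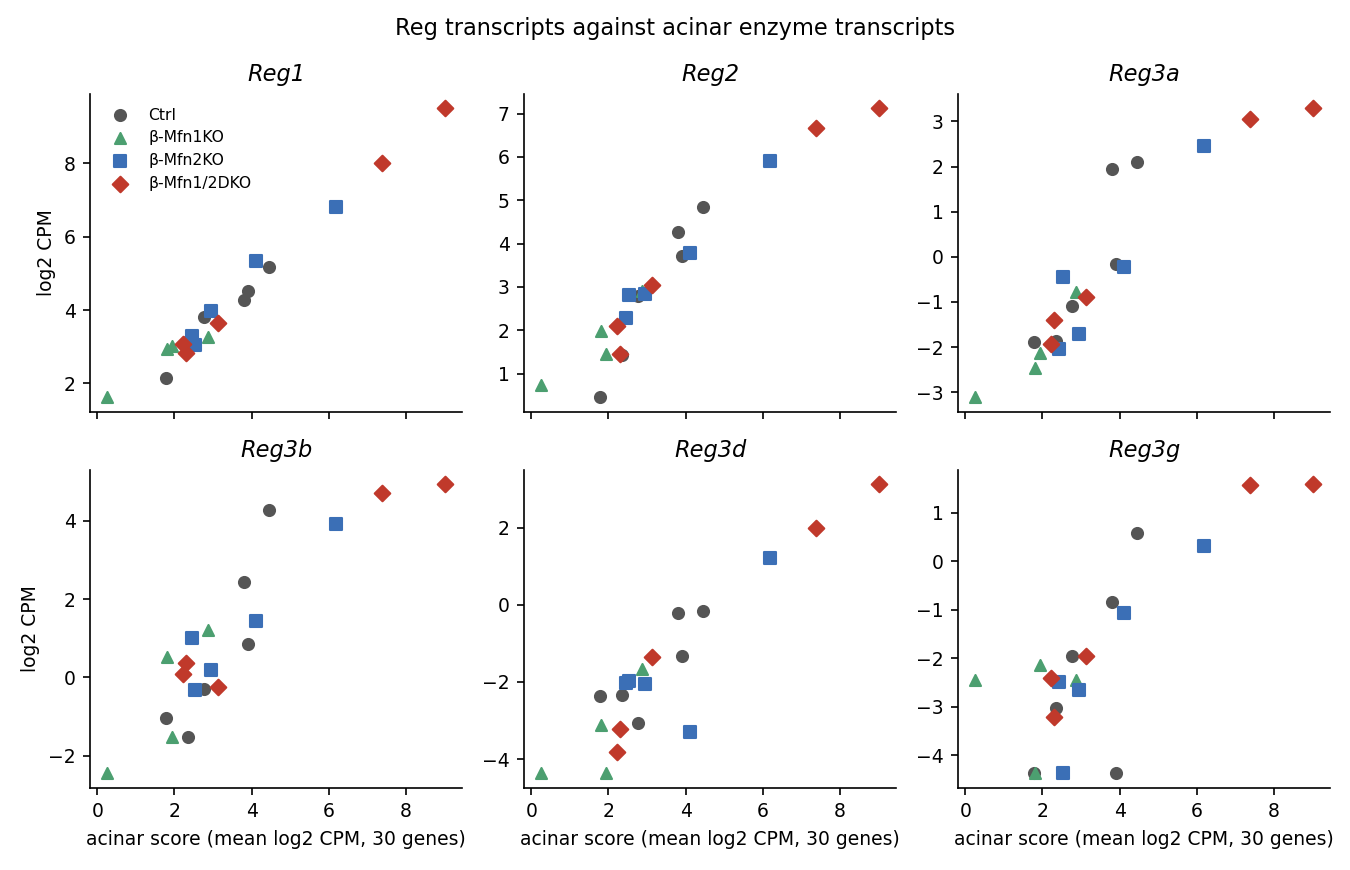
Log2 CPM of each clustered Reg gene (y axis) against the acinar score, the mean log2 CPM of 30 acinar enzymes (x axis), in 20 libraries marked by genotype. Libraries with 0 counts sit at the level set by the prior count. *Reg1* follows the score closely in every genotype, and the Reg3 genes scatter more, with Ctrl 2 and Ctrl 4 high for their score in *Reg3a* and *Reg3b*.

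The same relation was read as a correlation over the 18 libraries other than β-Mfn1/2DKO 4 and 5. Pearson's r was 0.97 for *Reg1* and 0.94 for *Reg2* (permutation p = 1e-05 each, the smallest the 100000 permutations can give, and 0.00311 after Benjamini-Hochberg adjustment over 15214 genes). Spearman's rho was 0.95 for both. For *Reg3a*, *Reg3b* and *Reg3d* r was 0.90, 0.86 and 0.82 (permutation p = 1e-05, 1e-05 and 4e-05, adjusted 0.00311, 0.00311 and 0.0111), and rho was 0.91, 0.75 and 0.75. *Reg3g* had r = 0.63 and rho = 0.56 (permutation p = 0.00566, adjusted 0.712), so that 5 of the 6 members that could be tested passed by r, beside 0.408% of genes. Adjusted over genes, rho passed for *Reg1*, *Reg2* and *Reg3a* (0.00423 each) and not for *Reg3b* (0.166), *Reg3d* (0.155) or *Reg3g* (1.0). Without the 2 libraries farthest from the median score, β-Mfn1KO 1 and β-Mfn2KO 4, r was 0.95, 0.93, 0.86, 0.76, 0.65 and 0.63 for the 6 genes in the order *Reg1*, *Reg2*, *Reg3a*, *Reg3b*, *Reg3d* and *Reg3g*. Within the 13 libraries of lower depth, at most 20329064 counts (a set chosen after seeing the data), r was 0.96 for *Reg1*, 0.92 for *Reg2*, 0.88 for *Reg3a*, 0.84 for *Reg3b*, 0.71 for *Reg3d* and 0.49 for *Reg3g* (permutation p = 0.0907 for the last). Both axes share a library and its scaling.

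The genes most like each member over the 20 libraries were mostly digestive enzymes, other secretory genes and other Reg genes. For *Reg1* they were *Amy2a1*, *Amy2a5*, *Cpa1*, *Cela2a* and *Cela1*, with r = 0.99 for each. *Amy2a1* and *Amy2a5* are near-identical amylase copies among which reads can be split. These correlations are descriptions, and the points share library and depth. For *Reg2* they were *2210010C04Rik*, *Tff2*, *Cela2a*, *Zg16* and *Prss2* (r = 0.97 to 0.96). For *Reg3a* they were *Dmbt1*, *Reg2*, *Slc39a5*, *Try4* and *Try10* (0.95 to 0.93), for *Reg3b* they were *Reg2*, *Gp2*, *Lamb3*, *Klk1* and *Reg3a* (0.93 to 0.92), and for *Reg3d* they were *Try4*, *Pdia2*, *Cpb1*, *Cela3b* and *Pnliprp1* (0.93 to 0.92). Of the 50 genes most like *Reg1*, 26 were among the 30 acinar enzymes, and of the 50 most like *Reg3b*, 24 were. These counts were the same over the 18 libraries.

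A further measure asks whether the members keep a fixed ratio to the enzymes. *Reg1* had 97.3 to 142 counts per 10000 enzyme counts in Ctrl, 89.2 to 178 in β-Mfn1KO, 95.3 to 147 in β-Mfn2KO and 93.9 to 119 in β-Mfn1/2DKO. In β-Mfn1/2DKO 4 and 5, whose *Reg1* levels were highest, the ratios were 93.9, just below the lowest control, and 97.6, just above it. Per *Cpa1* count, *Reg1* stood lower in β-Mfn1/2DKO 4 (0.326) and 5 (0.284) than in every control (0.383 to 0.535). The highest value per *Cpa1* count was 0.789, in β-Mfn1KO 1. Over the 20 libraries the ratio of *Reg1* to the summed enzymes varied by 2.00-fold from lowest to highest. The acinar enzymes' share of a library varied from 0.016% to 7.57%. On the log2 scale the *Reg1* ratio was -6.47 ± 0.21 (SD, n = 6) in Ctrl, -6.17 ± 0.45 (n = 4) in β-Mfn1KO, -6.39 ± 0.30 (n = 5) in β-Mfn2KO and -6.62 ± 0.13 (n = 5) in β-Mfn1/2DKO, and these ranges overlapped. The SD of the log2 ratio over all libraries was 0.30 for *Reg1*. For 25 enzymes, each set against the sum of the others, the SD ran from 0.15 to 1.16 with a median of 0.31, and 13 of the 25 had a larger SD than *Reg1*.

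**Figure D3:**
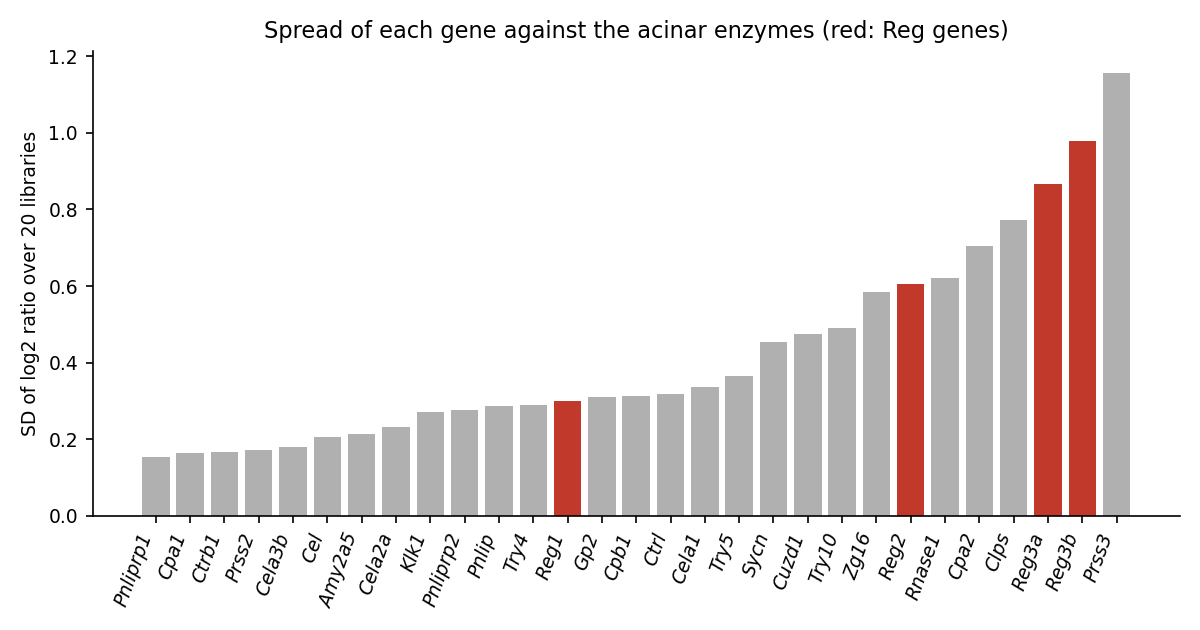
SD over 20 libraries of the log2 ratio of each gene to the acinar enzymes (bars from 0), for 4 Reg genes (red) against the summed enzymes and 25 enzymes (grey) against the sum of the others. *Reg1* (0.30) lies in the middle of the enzymes, and *Reg3a* (0.87) and *Reg3b* (0.98) lie among the most variable.

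The other members held the ratio less closely. For *Reg3a* and *Reg3b* it rested on few counts in several libraries. In Ctrl 1, 3, 5 and 6 *Reg3a* had 6, 3, 12 and 3 counts, and *Reg3b* had 11, 6, 25 and 4. The part of counting error in their spread was not tested. The SD was 0.61 for *Reg2*, with 4 of 25 enzymes larger, and 0.87 for *Reg3a* and 0.98 for *Reg3b*, with 1 of 25 larger (*Prss3*). Per 10000 enzyme counts, *Reg3b* had 61.7 in Ctrl 4 and 26.6 in Ctrl 2, and between 4.16 and 9.77 in the other 4 controls. It had 7.92, 25.9, 6.17 and 21.2 in β-Mfn1KO, 8.87, 9.45, 24.2, 12.8 and 10.4 in β-Mfn2KO, and 14.5, 6.54, 17.4, 9.57 and 4.08 in β-Mfn1/2DKO. *Reg3a* had 19.2 in Ctrl 2 and 13.5 in Ctrl 4, and between 3.12 and 4.88 in the other 4 controls. Its β-Mfn1/2DKO values were 3.06, 4.05, 4.64, 3.01 and 1.31. *Reg3a* was at 2.41 to 8.06 in the single knockouts. The 2 highest *Reg3a* ratios were thus in Ctrl 2 and Ctrl 4, whereas for *Reg3b* only Ctrl 4 stood apart, with β-Mfn1KO 2 and 4 and β-Mfn2KO 3 near Ctrl 2. The lowest *Reg3a* ratio of all 20, like that of *Reg2* at 18.7, was in β-Mfn1/2DKO 5. Per 100 *Reg1* counts, *Reg3b* had 53.9 in Ctrl 4 (95% Wilson interval 45.9 to 63.3) and 4.18 in β-Mfn1/2DKO 5 (4.0 to 4.37), intervals that cover counting error only.

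**Figure D4:**
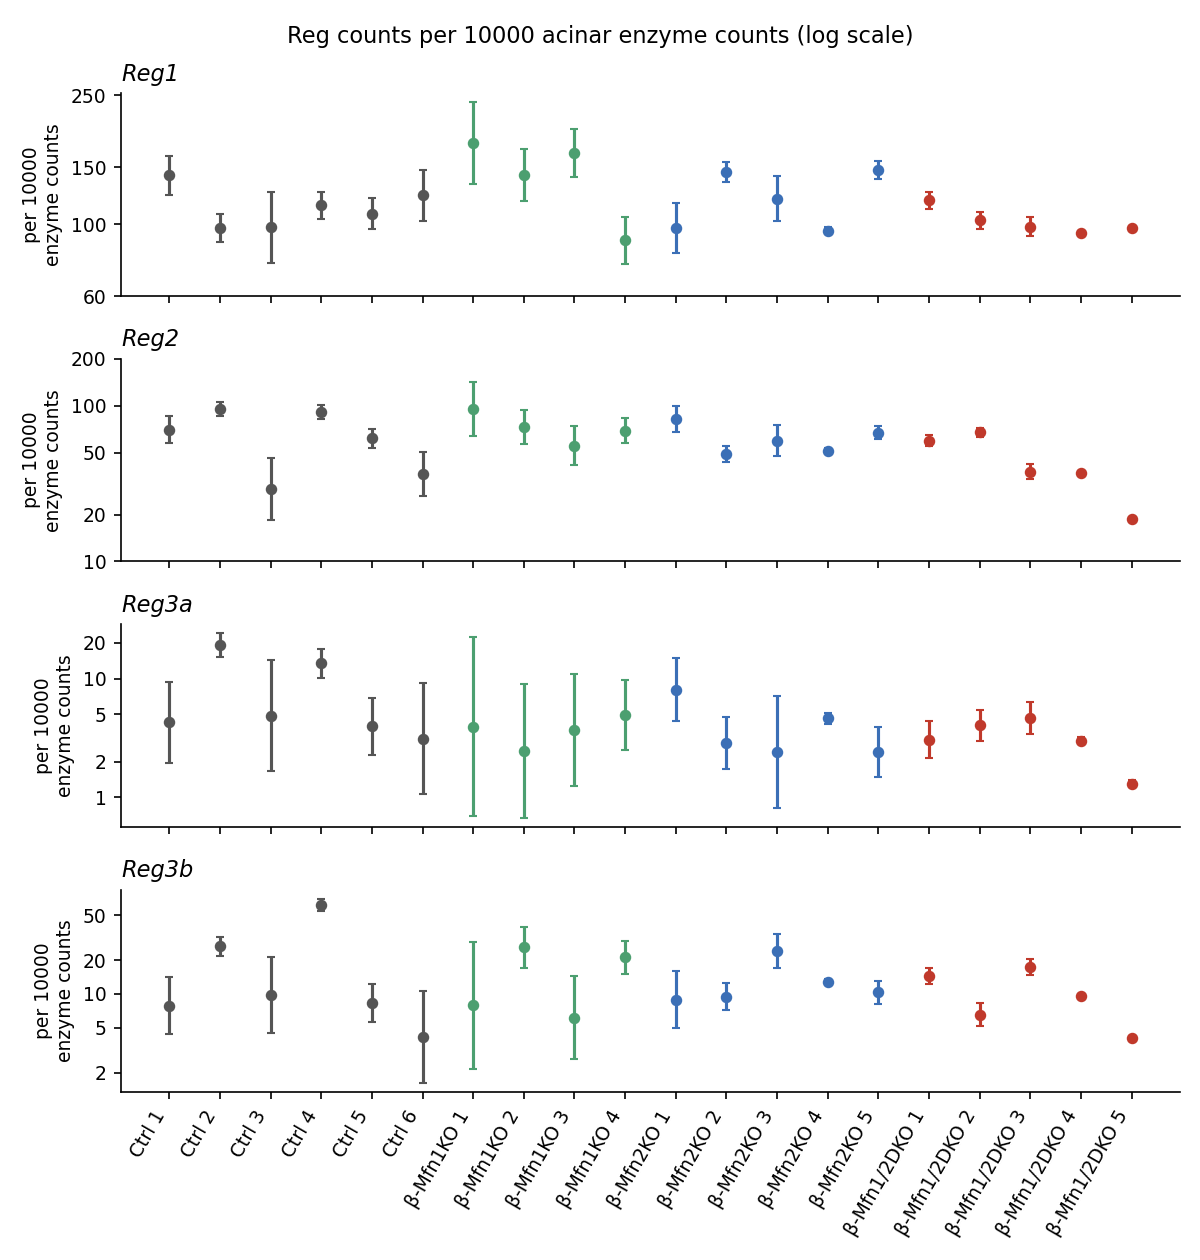
Counts of *Reg1*, *Reg2*, *Reg3a* and *Reg3b* per 10000 acinar enzyme counts in each library (log scale), with 95% Wilson intervals that cover counting error only, coloured by genotype. *Reg1* stays between 89.2 and 178, whereas *Reg3b* runs from 4.08 in β-Mfn1/2DKO 5 to 61.7 in Ctrl 4.

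With the acinar score in the model, 1 of 7 members was called in β-Mfn1/2DKO against Ctrl, and it was lower, beside 4.09% of all genes in that fit. *Reg1* differed by -0.05 ± 0.13 (adjusted p = 0.869, edgeR), *Reg2* by -0.54 ± 0.24 (0.156), *Reg3b* by -1.10 ± 0.48 (0.142), *Reg3d* by -0.94 ± 0.50 (0.257) and *Reg3g* by -0.67 ± 0.59 (0.540). *Reg3a* was called lower, at -1.49 ± 0.41 (adjusted p = 0.0153, edgeR). This call was lost without either control with a high *Reg3a* ratio, Ctrl 2 (-1.01, adjusted p = 0.116, edgeR) or Ctrl 4 (-1.27, adjusted p = 0.0706, edgeR), and it was kept in the 18 other fits that left out a library. The acinar enzymes themselves had a median of -0.01 in this fit, which the score they make up sets near 0. *Cpa1* differed by -0.02 ± 0.05.

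**Figure D5:**
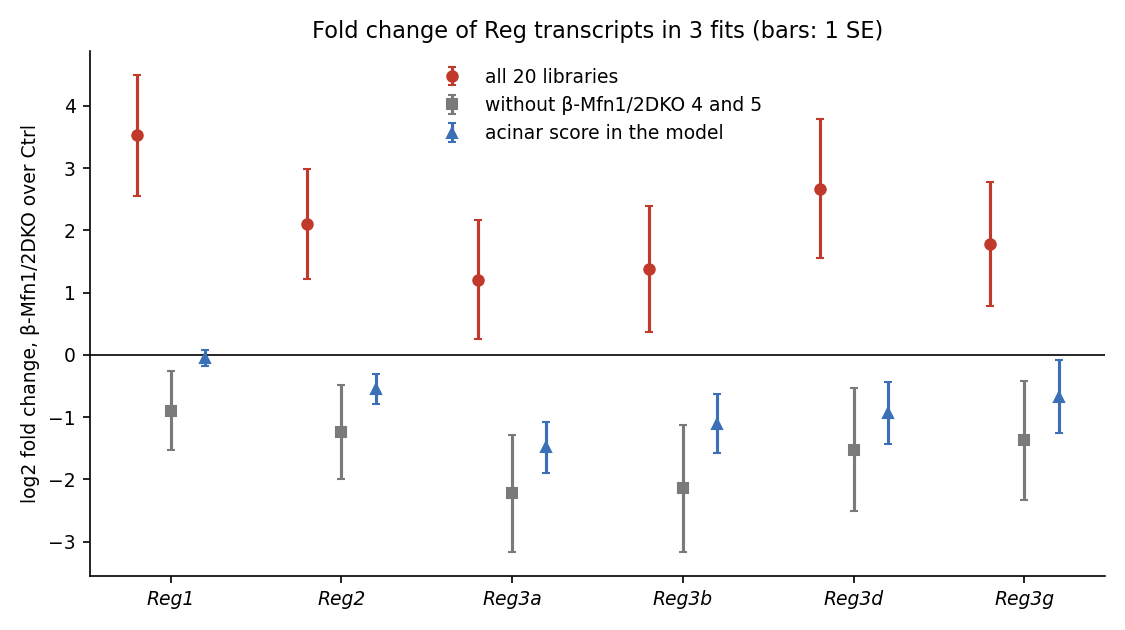
Log2 fold change of the clustered Reg genes in β-Mfn1/2DKO over Ctrl with 1 SE, from the fit to 20 libraries (red circles), the fit without β-Mfn1/2DKO 4 and 5 (grey squares) and the fit with the acinar score in the model (blue triangles). All 6 values are above 0 in the fit to 20 libraries (1.2 to 3.53) and below 0 in the other 2 fits (-2.23 to -0.05).

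Genes of the stress response were read in the same libraries. *Ddit3*, which encodes the stress factor CHOP, ranged from 39.3 to 79.6 CPM in Ctrl and stood at 232, 315, 259, 205 and 151 CPM in β-Mfn1/2DKO, with no overlap. Among the single knockouts, β-Mfn2KO 3 was highest at 196 CPM. *Trib3*, an inhibitor induced by ATF4 and CHOP, ranged from 43.4 to 111 CPM in Ctrl and stood at 281, 322, 286, 263 and 191 CPM in β-Mfn1/2DKO. Both were at their highest in replicate 2, in which *Reg1* was 12.4 CPM, and at their lowest in replicate 5, in which *Reg1* was 729 CPM. The log2 differences from Ctrl were 1.95 ± 0.29 for *Ddit3* and 1.94 ± 0.23 for *Trib3* (adjusted p = 4.22e-05 and 2.86e-06, edgeR), and 2.18 ± 0.30 and 2.11 ± 0.24 without replicates 4 and 5. *Atf3* and *Fgf21* were instead highest in replicates 4 and 5, as the Reg genes were. Their slopes on the acinar score were 0.19 ± 0.05 and 0.45 ± 0.05 (adjusted p = 0.0354 and 3.86e-06, edgeR). For *Ddit3* and *Trib3* the slopes were -0.16 ± 0.05 and -0.09 ± 0.04 (adjusted p = 0.168 and 0.502, edgeR). Which cells held these transcripts was not tested. *Atf3*, another factor of this response, stood at 12.3, 10.7, 8.21, 21.98 and 30.8 CPM in β-Mfn1/2DKO against 3.52 to 6.24 CPM in Ctrl, and differed by 1.83 ± 0.31, and by 1.17 ± 0.25 without those replicates. *Fgf21*, a secreted hormone of the response, stood at 0.720, 0.501, 0.605, 3.62 and 5.597 CPM against 0.1504 to 0.424 CPM in Ctrl. It differed by 2.90 ± 0.60 (adjusted p = 0.00145, edgeR) and, without them, by 1.08 ± 0.39 (adjusted p = 0.0812, edgeR), so that its call was lost. *Hspa5*, the endoplasmic reticulum chaperone BiP, differed by -0.30 ± 0.12 (adjusted p = 0.102, edgeR), and by -0.24 without replicates 4 and 5. Of the 23 genes of the list, 6 were called higher and 5 lower, and without β-Mfn1/2DKO 4 and 5 again 6 were called higher and 4 lower.

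Upstream signals of the Reg3 genes were next examined. *Ifng* was not in the table. Of the other 26 genes for cytokines, their receptors and STAT3 targets, 3 were called higher and 2 lower in β-Mfn1/2DKO, with a median log2 fold change of 0.19, and 2 were called higher and 0 lower without replicates 4 and 5. The 5 called genes are named here after their values were seen. *Bcl3*, a regulator of NF-κB, stood at 8.47 to 12.8 CPM in Ctrl and 16.4 to 25.3 CPM in β-Mfn1/2DKO (log2 difference 0.87 ± 0.17, adjusted p = 0.000855, edgeR). *Cebpb*, an acute-phase transcription factor, stood at 49.6 to 114 CPM in Ctrl and 122 to 155 CPM in β-Mfn1/2DKO (0.78 ± 0.15, adjusted p = 0.000855, edgeR). Neither overlapped between the groups, and both kept their calls without replicates 4 and 5 (0.72 and 0.86). *Lifr*, the receptor of leukemia inhibitory factor, was lower without overlap, at 71.8 to 98.6 CPM in Ctrl and 52.5 to 65.5 CPM in β-Mfn1/2DKO (-0.59 ± 0.08, adjusted p = 2.18e-05, edgeR), and without those replicates its -0.57 fell short of the fold change of 1.5 (adjusted p = 0.000165, edgeR). *Osmr*, the oncostatin M receptor, was higher by 1.21 ± 0.41 (adjusted p = 0.0458, edgeR) and was highest in replicates 4 and 5, without which it differed by 0.49 and was not called. *Hp*, for haptoglobin, was called lower, and not without those replicates. It stood at 16.3 CPM in Ctrl 6 and at most 0.0511 CPM in the other 5 controls and in β-Mfn1/2DKO. Among the genes that were not called, *Stat3*, the factor itself, differed by -0.05 ± 0.07 and its target and inhibitor *Socs3* by 0.39 ± 0.18 (adjusted p = 0.669 and 0.163, edgeR). *Il6ra*, the IL-6 receptor, differed by -0.21 ± 0.07 (adjusted p = 0.0532, edgeR). *Il22ra1*, the IL-22 receptor of epithelial cells, had 0 CPM in all 6 controls and at most 0.0334 CPM in β-Mfn1/2DKO 1 to 3, with 0.199 and 0.542 CPM in replicates 4 and 5 (adjusted p = 0.0566, edgeR). *Extl3*, which encodes a proposed receptor of Reg proteins, was measured at 52.3 to 54.8 CPM in Ctrl and 57.1 to 60.8 CPM in β-Mfn1/2DKO, a log2 difference of 0.14 ± 0.05 (adjusted p = 0.0823, edgeR). Without replicates 4 and 5, *Stat3*, *Socs3*, *Il6ra* and *Extl3* differed by -0.04, 0.23, -0.20 and 0.14, none called.

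Acinar identity and injury genes were read in the same libraries. *Ptf1a*, the factor that maintains acinar identity, ranged from 0 to 0.508 CPM in Ctrl and was 0.141, 0.0891, 0.0426, 3.49 and 7.63 CPM in β-Mfn1/2DKO, so that it was high where the Reg genes were high. Its difference of 3.13 ± 1.14 did not pass (adjusted p = 0.0664, edgeR), nor did those of its partner *Rbpjl* (2.44 ± 1.10, adjusted p = 0.147, edgeR) and of *Nr5a2*, another acinar factor (0.72 ± 0.38, adjusted p = 0.223, edgeR). Without replicates 4 and 5 these 3 differed by -1.42, -1.56 and -0.39, none called. *Bhlha15*, which encodes the secretory cell factor MIST1, was called lower at -1.27 ± 0.20 (adjusted p = 9.85e-05, edgeR). It stood at 33.2 to 92.8 CPM in Ctrl against 23.5 to 31.0 CPM in β-Mfn1/2DKO, and the call was kept without replicates 4 and 5 (-1.15). Its slope on the acinar score was -0.02 ± 0.04 (adjusted p = 0.934, edgeR), beside 1.01 ± 0.08 for *Ptf1a*. Which cells held *Bhlha15* was not tested. *Tff2*, a trefoil peptide, was called higher at 3.54 ± 1.10 (adjusted p = 0.0287, edgeR), and *Spink1*, the acinar trypsin inhibitor, at 2.85 ± 1.08 did not pass (adjusted p = 0.0778, edgeR). Without β-Mfn1/2DKO 4 and 5 these were at -1.07 and -1.80, neither called.

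Of the 9 genes listed for acinar injury, 4 were called higher in β-Mfn1/2DKO, and 2, *Nupr1* and *Trp53inp1*, were called higher without replicates 4 and 5. On the acinar score *Trp53inp1* had a slope of 0.08 ± 0.02 (adjusted p = 0.0606, edgeR). *Nupr1* had a slope of 0.41 ± 0.06 (adjusted p = 0.000122, edgeR). Whether these transcripts came from acinar cells was not tested. *Nupr1*, a stress gene first found in pancreatitis, ranged from 59.4 to 193 CPM in Ctrl and stood at 371, 478, 480, 1751 and 3279 CPM in β-Mfn1/2DKO, with no overlap. The log2 difference was 3.20 ± 0.55, and without replicates 4 and 5 it was 1.71 ± 0.42 (adjusted p = 0.000236 and 0.00871, edgeR). *Lcn2* and *Saa3*, acute-phase genes often induced with *Reg3b* and *Reg3g*, differed by -0.02 ± 0.49 and -1.96 ± 1.08 (adjusted p = 1.0 and 0.252, edgeR), and by -0.36 and -2.38 without replicates 4 and 5. *Lcn2* was highest in β-Mfn2KO 5, at 22.1 CPM, where *Reg3b* was 1.10 CPM. In that library the immune and stellate markers read below summed to 751 and 349 CPM.

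Markers of other cells were read beside these results. Summed transcripts of 9 ductal markers ran from 755 to 839 CPM in Ctrl and from 946 to 1815 CPM in β-Mfn1/2DKO, and 3 of the 9 were called higher (0 without replicates 4 and 5). Summed transcripts of 9 immune markers ran from 70.7 to 92.0 CPM in Ctrl 1 to 5, stood at 536 CPM in Ctrl 6 and ran from 70.2 to 202 CPM in β-Mfn1/2DKO, with 0 called higher and 2 lower by edgeR (0 lower without replicates 4 and 5). Endothelial markers were at 116 to 173 CPM in Ctrl and 171 to 277 CPM in β-Mfn1/2DKO with 4 of 5 called higher (1 without replicates 4 and 5). Stellate markers were at 18.5 to 44.7 CPM in Ctrl 1 to 5, at 325 CPM in Ctrl 6 and at 47.5 to 96.8 CPM in β-Mfn1/2DKO, above every control other than Ctrl 6, with 1 of 7 called higher (0 without replicates 4 and 5). The part of ductal, endothelial and stellate RNA in the Reg differences was not tested.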

How the data were processed

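Islet RNA was sequenced in 20 libraries. Per the study's methods and the submitters' processing notes, the authors aligned 151 bp paired-end reads to GRCm38 with STAR 2.6.1b and estimated gene counts with RSEM 1.3.1. The deposited table holds these expected counts as whole numbers, without normalization, for 28632 genes. A second deposited table, divided by the authors' DESeq2 factors, was not used here. The strand setting is not given in the sources used here.

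Groups came from the sample labels, and 0 sample columns were left out. Symbols came from GENCODE M21 through the Ensembl IDs, and 71 genes had none. Counts were fitted with edgeR 4.0.16 in R 4.3.3 (TMM, estimateDisp, glmQLFit, glmQLFTest), with 1 coefficient per group in 1 fit over 20 libraries and Benjamini-Hochberg adjustment over all genes. Calls needed a fold change above 1.5, with the adjusted p below 0.05. CPM are TMM-scaled, and log2 CPM used a prior count of 2. The alternatives were DESeq2 1.42.0, other scalings, filterByExpr, the compared groups alone, sex, replicate block, acinar score, and libraries left out. The test and the slope were checked on simulated counts. The study gives each group's library number as its number of mice, so p-values measure the spread between mice. Whether mice shared a litter or a preparation day is not given in the sources used here.

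The 7 members were taken by name. Others named were the mitofusins, preset genes of the enzyme, identity, injury, cytokine, receptor and stress lists, and the 5 genes most correlated with each member with a mean of at least 50 counts. *Ins1*, *Ins2*, *Gcg*, *Prss1*, *Prss3*, *Trp53inp1*, *Bcl3*, *Cebpb*, *Lifr*, *Osmr* and *Hp* outside these were named after their values were seen. The members and all lists were chosen with earlier results of these data known. Promoter sequences are from RefSeq, in which 7 of 7 members matched.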

Additional observations from a re-analysis of the deposited data

Results flagged for a closer look

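Gaps between single libraries were examined in 44 sets of values, each a gene or ratio in a group of 4 to 6 libraries, and chance flags about 1 in 20 such sets. In 2 of them 1 library stood apart. *Reg3d* had a log2 CPM of 1.21 in β-Mfn2KO 4, where the other β-Mfn2KO libraries ran from -3.29 to -1.99, and its gap to the nearest of them was 0.71 of the group's range. The acinar score was also highest in that library among β-Mfn2KO, at 6.18. *Reg3g* had a log2 CPM of -4.37 in β-Mfn1KO 2, where the other β-Mfn1KO libraries ran from -2.46 to -2.13, with a gap of 0.855 of the range. That library had 0 counts of *Reg3g*, so its log2 value is set by the prior count.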

How the results depend on the processing

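In β-Mfn1/2DKO against Ctrl, 1 member was called, and 0 with sex as a covariate, without β-Mfn1/2DKO 4 and 5, and without these and β-Mfn2KO 4 (added after seeing the data). The count with the acinar score was also 1, but for *Reg3a* lower and not *Reg1* higher. In β-Mfn1/2DKO against β-Mfn1KO, 3 were called, 5 with DESeq2 and with total-count scaling, 1 with sex and 0 with the acinar score or without those libraries. Leaving out 1 library gave 0 to 2 members against Ctrl, 1 to 5 against β-Mfn1KO, 0 to 2 against β-Mfn2KO, 0 to 1 for the interaction and 6 to 6 for the slope. Both single knockouts against Ctrl gave 0 to 0. The interaction under only the 2 groups compared gives no value and was not run.

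Fold changes of β-Mfn1/2DKO against Ctrl reversed for *Reg1*, *Reg2*, *Reg3a*, *Reg3b*, *Reg3d* and *Reg3g* with the acinar score (-0.048, -0.54, -1.49, -1.10, -0.94 and -0.67) and without β-Mfn1/2DKO 4 and 5 (-0.90, -1.24, -2.23, -2.14, -1.53 and -1.37). With the score, *Reg1* also reversed in β-Mfn1KO against Ctrl (0.19). In β-Mfn1/2DKO against β-Mfn2KO, *Reg1*, *Reg2*, *Reg3a*, *Reg3b* and *Reg3d* reversed with the score (-0.25, -0.44, -0.36, -0.32 and -0.35), and *Reg3g* did not (0.03). Without β-Mfn1/2DKO 4 and 5 these genes, in that order, stood at -2.02, -1.92, -2.18, -2.12, -2.23 and -1.58. In β-Mfn1/2DKO against β-Mfn1KO, *Reg1*, *Reg2*, *Reg3a*, *Reg3b*, *Reg3d* and *Reg3g* reversed with the score (-0.24, -0.36, -0.18, -0.59, -0.16 and -0.46). *Reg2*, *Reg3d* and *Reg3g* reversed with it in β-Mfn2KO against Ctrl (-0.10, -0.58 and -0.70). In that last comparison *Reg3d* and *Reg3g* reversed with sex (-0.15 and -0.17) and *Reg3b* with total-count scaling (0.019). Leaving out 1 library, *Reg1* against Ctrl ran from 2.02 to 3.87 in β-Mfn1/2DKO, and in β-Mfn2KO *Reg2* ran from -0.55 to 1.12, *Reg3a* from -1.84 to 0.46, *Reg3b* from -1.54 to 1.31, *Reg3d* from -1.28 to 1.14 and *Reg3g* from -1.13 to 1.23. The causes were not tested.

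With the replicate block 0 members were called in β-Mfn1/2DKO against Ctrl (*Reg1* 1.91, adjusted p = 0.125, edgeR) and 4 against β-Mfn1KO, and in β-Mfn2KO against Ctrl *Reg3d* and *Reg3g* reversed (-0.26 and -0.40). Deviations of same-numbered libraries correlated above 0.1 in 16 of 27 pairs (lowest -0.13), against 28 of 122 pairs with other numbers and 40 of 73 pairs of the same sex. Since not every same-number pair passed, the libraries were treated as sharing only a number.

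Over all genes, β-Mfn1/2DKO against Ctrl called 1491 genes and 956 without β-Mfn1/2DKO 4 and 5, and against β-Mfn1KO 1921 and 1277. Without β-Mfn2KO 4 as well these were 953 and 1257, with 680 against 1099 for β-Mfn2KO and 504 against 784 for the interaction. β-Mfn1KO against Ctrl called 7 genes, 3 in the 2 groups alone and 3 to 21 leaving out 1 library. Total-count scaling raised the share called higher in β-Mfn1/2DKO against Ctrl from 62.2% to 79.6%. Low counts of *Reg3d*, *Reg3g* and *Reg4*, and of *Reg3a* and *Reg3b* in several libraries, limit what could be detected.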
